A study of Mus musculus with 2 samples.

Results

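Wnt ligands are secreted, lipid-modified glycoproteins that cells use to signal to themselves and to near neighbours. They bind Frizzled receptors, with LRP5 or LRP6 when the signal runs through β-catenin and TCF/LEF factors, or with ROR and RYK receptors when it acts on cell polarity and movement without β-catenin. In preadipocytes β-catenin signaling holds cells in an undifferentiated state, and in mice Wnt6, Wnt10a and Wnt10b are known as ligands that restrain adipogenesis. The 10 ligand genes described here were Wnt2, Wnt4, Wnt5a, Wnt5b, Wnt6, Wnt7a, Wnt9a, Wnt10a, Wnt10b and Wnt11, of 18193 genes named on the array. They were chosen by name as ligands expressed in mouse embryonic fibroblasts (MEFs), with their levels and differences on these same arrays already known, so every value below is a description and none is a test. Every probe set annotated with exactly 1 of these genes was taken, which gave 19 probe sets, and no probe set that named several genes included one of them.

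Expression was measured at 12 h of adipocyte differentiation in primary MEFs, which are fibroblasts grown from whole embryos, here from embryonic day 12.5 and at passage 2. One culture came from wild-type BCL11B+/+ embryos and the other from BCL11B-/- embryos, both of the C57BL/6 strain, and each was measured on 1 Affymetrix mouse expression array. Both cultures had received insulin at 10 μg/ml, pioglitazone at 10 μM, dexamethasone at 1 μM and methylisobutylxanthine at 0.5 mM in medium with 10% serum, ascorbic acid, penicillin and streptomycin, so that the values have no untreated or undifferentiated control. The sources used here do not say how many embryos went into a culture or which exons of Bcl11b were deleted. The deposited values are log2 expression after the robust multi-array average (RMA), a method that corrects background, brings the arrays to a common distribution and summarises the probes of each probe set. With 1 array for each genotype there is no replicate error and no p-value, so a difference was described by its size, and 1.5-fold was used for counts. As a technical yardstick, probe sets of the same gene scattered around their gene's own difference with an SD of 0.145 (log2, 5543 genes), which holds no variation between cultures.

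Bcl11b itself was 2.26- to 2.97-fold lower on the BCL11B-/- array over its 4 probe sets, although a probe set outside the deleted part would not check the genotype. All 9 fibroblast markers, such as Col1a1, Col3a1 and Pdgfra, lay between 10.07 and 14.06 log2 units on both arrays, of which Dcn (−0.88) and Thy1 (−0.65) were past 1.5-fold in the BCL11B-/- culture. The arrays also differed in genes other than Bcl11b. On their brightest probe sets Xist, which is transcribed from the inactive X chromosome, differed by −5.99 log2 units. Eif2s3y, Kdm5d and Uty of the Y chromosome differed by 1.08, 0.97 and 0.81. On the BCL11B+/+ array these probe sets read 10.80 for Xist and 7.89, 6.84 and 6.80 for the Y-linked genes. Xist and Y-linked genes were thus both well above 5 log2 units on that array, whereas Xist read under 5 on the BCL11B-/- array. The sex of the embryos is not given in the sources used here and was not tested. Of 11 macrophage markers 9 were at least 1.5-fold lower, beside 1.75% of all genes counted the same way. The summed linear level of the 11 was 4596 in BCL11B+/+ and 2627 in BCL11B-/- MEFs. By contrast, 4 of 6 measured chondrocyte markers were higher, beside 1.61% of all genes. The summed level of all 9 listed was 539 and 977. With 1 array for each genotype, an effect of Bcl11b loss on these markers cannot be told from another difference between the cultures.

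Not every one of the 10 genes stood clear of the array's background. Each had a mean of both arrays of at least 5 log2 units on its brightest probe set, the floor used here, and 14 of the 19 probe sets reached it. A list of 19 genes that fibroblasts are not known to use, called silent genes here, such as those of lens crystallins, sperm protamines and pituitary hormones, gave 29 probe sets with means from 2.31 to 7.68. The highest of these was the oxytocin gene Oxt, and the next was 6.08. Of the 10 ligands 5 had a probe set with a mean above 6.08, namely Wnt2, Wnt4, Wnt5a, Wnt5b and Wnt11. With Oxt included, only 2 ligand probe sets, both of Wnt5a, had a mean above all silent genes. Wnt2, Wnt4, Wnt5b and Wnt11 thus stood above the silent genes only with Oxt left out. The brightest probe sets of Wnt6, Wnt7a, Wnt9a, Wnt10a and Wnt10b read between 5.01 and 6.03 on either array, within the span of those genes, so these values alone do not show that the 5 genes were transcribed. Of the Wnt genes outside the 10, Wnt3a, Wnt7b and Wnt16, also passed the floor, at 5.32, 6.59 and 6.55.

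**Figure D1:**
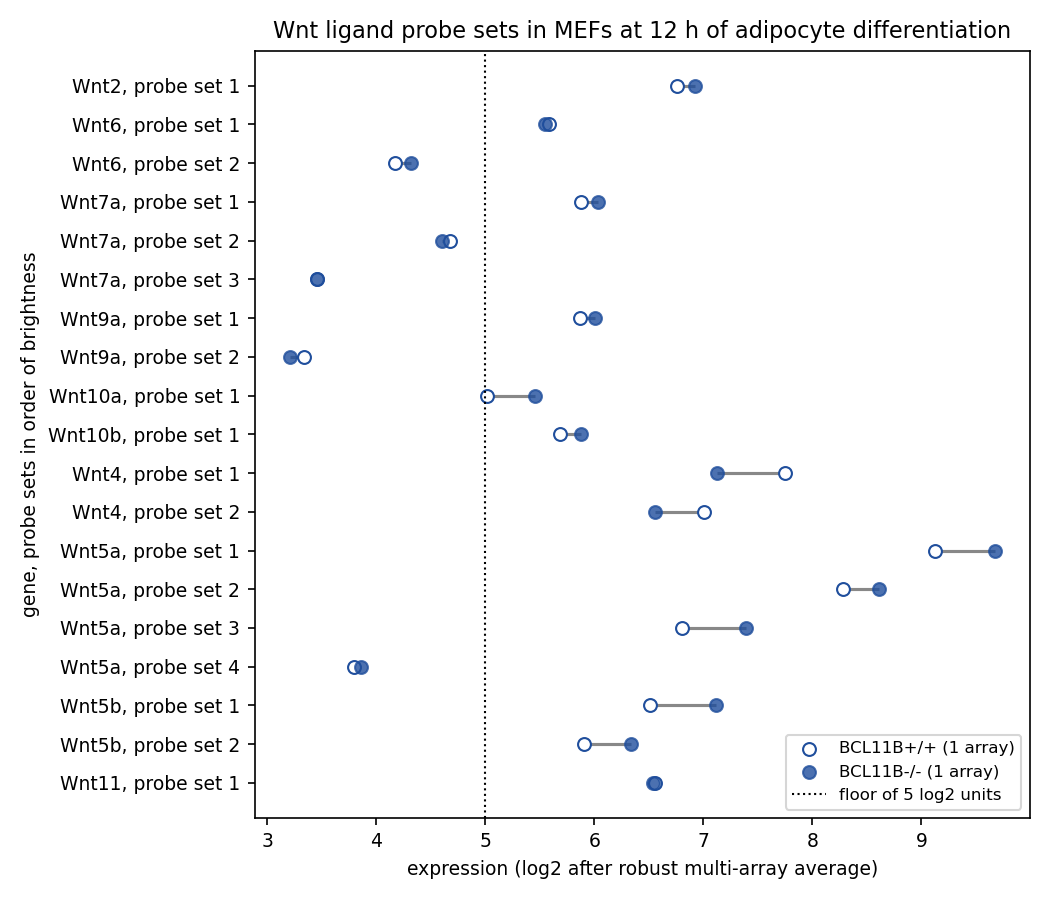
Expression (horizontal axis, log2 after RMA) of the 19 probe sets of the 10 Wnt ligands (vertical axis, probe sets of a gene numbered from the brightest) as open circles for BCL11B+/+ and filled circles for BCL11B-/- MEFs, drawn without error bars since each genotype has 1 array. BCL11B-/- lies to the left for both Wnt4 probe sets and to the right for all 4 Wnt5a and both Wnt5b probe sets, and 5 dim probe sets lie left of the dotted floor of 5.

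In the deposited values the 3 largest differences were those of Wnt4, Wnt5b and Wnt5a, which are known mainly for signaling without β-catenin. This order depends on how background is treated. After the median level of silent genes was subtracted Wnt10a had the largest difference, 1.13, beside 0.78 for Wnt5b, −0.68 for Wnt4 and 0.56 for Wnt5a. The amount subtracted was smaller for BCL11B-/- (4.11) than for BCL11B+/+ (4.33), which by itself moves dim genes upward. Wnt5b, a close relative of Wnt5a that takes part in cartilage maturation and has been reported to favor adipogenesis in mouse 3T3-L1 cells, was higher in BCL11B-/- MEFs. Wnt4, which drives formation of kidney tubules and of the female reproductive tract, was lower. Of the 10 ligands these were the only ones past 1.5-fold on their brightest probe set, 1 in each direction, and 8 were neither. Over all 12331 genes counted the same way, 1.61% were higher by this size in BCL11B-/- MEFs and 1.75% lower. With 10 genes a single gene is already a larger share than that, so the counts are given only as a description.

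The promoters of Wnt4 and Wnt5b are shown because these genes passed the size rule, and that of Wnt10b because it is the best known anti-adipogenic ligand. Each line gives the 250 bases before a RefSeq start site in GRCm38.p6, 5′ to 3′ in the direction of the gene, and capitals mark the motifs searched on both strands. These were the GC box GGGCGG, the nuclear receptor half-site AGGTCA that COUP-TF partners of BCL11B can bind, and the TCF/LEF core CTTTGA. The Wnt4 window is chr4:137277385-137277634 on the plus strand. The Wnt5b windows are chr6:119544348-119544597, chr6:119467212-119467461 and chr6:119449387-119449636, all on the minus strand, and the array does not tell which start was in use. The Wnt10b window is chr15:98778151-98778400 on the minus strand.
Wnt4: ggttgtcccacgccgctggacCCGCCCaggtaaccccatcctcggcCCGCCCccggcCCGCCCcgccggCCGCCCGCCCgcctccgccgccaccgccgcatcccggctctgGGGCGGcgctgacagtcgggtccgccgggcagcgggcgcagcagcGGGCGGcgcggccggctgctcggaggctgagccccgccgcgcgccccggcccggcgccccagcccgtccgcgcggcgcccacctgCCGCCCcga
Wnt5b start 1: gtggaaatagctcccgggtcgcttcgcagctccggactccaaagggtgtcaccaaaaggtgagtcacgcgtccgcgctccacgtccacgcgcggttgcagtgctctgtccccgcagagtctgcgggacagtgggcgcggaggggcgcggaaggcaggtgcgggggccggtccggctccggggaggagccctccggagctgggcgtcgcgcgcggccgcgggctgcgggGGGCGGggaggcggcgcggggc
Wnt5b start 2: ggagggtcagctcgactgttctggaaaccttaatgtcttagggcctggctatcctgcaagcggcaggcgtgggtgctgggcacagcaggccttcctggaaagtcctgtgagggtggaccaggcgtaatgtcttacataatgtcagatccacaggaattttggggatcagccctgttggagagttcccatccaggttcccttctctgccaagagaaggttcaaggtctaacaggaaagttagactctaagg
Wnt5b start 3: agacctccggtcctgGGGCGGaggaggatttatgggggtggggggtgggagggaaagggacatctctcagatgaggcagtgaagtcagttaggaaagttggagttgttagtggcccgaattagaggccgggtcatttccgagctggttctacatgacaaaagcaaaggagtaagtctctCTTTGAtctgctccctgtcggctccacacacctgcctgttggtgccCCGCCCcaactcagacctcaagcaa
Wnt10b: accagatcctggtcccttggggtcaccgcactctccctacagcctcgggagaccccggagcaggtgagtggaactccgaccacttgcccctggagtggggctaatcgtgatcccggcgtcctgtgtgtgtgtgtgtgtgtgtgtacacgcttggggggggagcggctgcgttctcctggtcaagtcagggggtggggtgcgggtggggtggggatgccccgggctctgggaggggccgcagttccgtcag

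The Wnt4 window held 8 matches to the GC box, of which a pair overlapped, and 85.2% of its bases were G or C. The 3 Wnt5b windows held 1, 0 and 2 GC boxes at 75.2, 53.2 and 55.6% G or C, and the window of start 3 also held the TCF/LEF core. The Wnt10b window held none of the 3 motifs and was 66.8% G or C. RefSeq promoters were matched for 8 of the 10 ligands, all but Wnt5a and Wnt10a. They gave 11 windows in all, with several for Wnt5b and for Wnt11. Their G and C content ran from 53.2 to 85.2%, and all 11 lay above the median of 52.4% over 32851 windows. The GC box was found in 8 of the 11 windows and in 32.7% of all windows. The half-site AGGTCA was found in 0 of 11 and in 14% of all windows, and the TCF/LEF core in 2 of 11, a Wnt5b and a Wnt11 window, and in 13.8% of all. The windows of all genes were not matched to the 11 for G and C content, so these shares do not show enrichment or lack of a motif. A match is not a binding site, and a missing match says only that these letters are not in the window.

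Among the ligands that act mostly without β-catenin, all 4 probe sets of Wnt5a read higher on the BCL11B-/- array. Wnt5a guides outgrowth of limbs and the body axis, largely through ROR2 and planar cell polarity. Its brightest probe set read 9.13 log2 units in BCL11B+/+ and 9.67 in BCL11B-/- MEFs, a difference of 0.54 that is 1.46-fold and so just under the size rule. The next read 8.28 and 8.61, and the one after it 6.80 and 7.39, which at 1.51-fold is just past the rule. The dimmest read 3.80 and 3.86, under the floor. On 3 probe sets the difference was thus 0.33 to 0.59, above the yardstick of 0.145, and on the dimmest it was 0.06.

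Wnt5b had 2 probe sets, and both were higher in BCL11B-/- MEFs. The brighter read 6.51 and 7.12, a log2 difference of 0.61 that is 1.53-fold. The dimmer read 5.91 and 6.34, a difference of 0.43 that is 1.35-fold, so that only 1 of them passed the rule. Both carry a suffix: _x on the brighter means that some of its probes also match other sequences, and _a on the dimmer that its probes match several transcripts of the gene. Wnt5b has therefore no value once such probe sets are left out, and which other sequences the brighter one matches is not given in the sources used here.

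Wnt4 was lower in BCL11B-/- MEFs on both of its probe sets, neither of which has a suffix. The brighter read 7.75 in BCL11B+/+ and 7.12 in BCL11B-/- MEFs, a difference of −0.63 that is 1.55-fold. The dimmer read 7.004 and 6.557, a difference of −0.45 that is 1.36-fold. As means over both of its probe sets the difference was −0.54 for Wnt4 and 0.52 for Wnt5b, each short of 1.5-fold, so both calls rest on the brighter probe set. Wnt11, which directs cell movements in gastrulation and branching of the kidney, had 1 probe set at 6.55 and 6.54, a difference of −0.02.

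The other 6 ligands were Wnt2, Wnt6, Wnt7a, Wnt9a, Wnt10a and Wnt10b, most of which are known mainly for signaling through β-catenin. All but Wnt2 read below 6.08, the highest silent-gene mean other than that of Oxt. Wnt10a, which is needed for teeth and skin appendages, had 1 probe set, which read 5.01 in BCL11B+/+ and 5.46 in BCL11B-/- MEFs. The difference of 0.45, or 1.36-fold, was the fourth largest of the 10 in size, at a level close to the floor, and became 1.13 with the silent-gene level subtracted. Wnt10b, the anti-adipogenic ligand of preadipocytes, read 5.69 and 5.88 on its only probe set, a difference of 0.19 that is 1.14-fold and became 0.40 with the silent-gene level subtracted. Of all measured genes 14.4% were at least as far in that direction. Wnt6, also known to restrain adipogenesis, read 5.58 and 5.55 on its brighter probe set and 4.17 and 4.32 on its dimmer one, with opposite signs.

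Wnt2, a ligand of lung and placenta development, read 6.76 and 6.93 on its only probe set, a difference of 0.17. Wnt7a, which sets dorsal identity in the limb, read 5.88 and 6.03 on the brightest of its 3 probe sets, and the other probe sets differed by −0.07 and 0.00 under the floor. Wnt9a, which takes part in joint formation, read 5.87 and 6.00 on the brighter probe set and 3.34 and 3.21 on the dimmer. For Wnt6, Wnt7a and Wnt9a the probe sets thus gave no common direction, and the 5 probe sets under the floor differed by at most 0.15.

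Over the brightest probe sets, 7 of the 10 ligands were above 0 and 3 below, with a median difference of 0.16, beside 48.8% of all genes above 0 and a median of 0.00. At the looser rule of 1.2-fold 3 ligands were higher (Wnt5b, Wnt5a and Wnt10a) and 1 was lower (Wnt4), beside 8.81% and 7.8% of all genes. Among probe sets at or above the floor, 2 of the 14 were 1.5-fold higher and 1 was lower, beside 1.4% and 1.65% of all named probe sets. The middle 95% of all genes lay between −0.48 and 0.50. Wnt4, Wnt5a and Wnt5b fell outside this range and the other 7 inside. Ranked by the weighted average difference, which multiplies a log2 difference by relative brightness, Wnt5a was at rank 151 from the top of all 18193 named genes. Wnt5b was at rank 326 from the top and Wnt4 at rank 243 from the bottom. Wnt10b was at rank 3424 from the top. By the plain log2 difference, over the 12331 genes past the floor, Wnt5b came before Wnt5a, at ranks 183 and 248, and Wnt4 was at rank 192 from the bottom and Wnt10b at rank 1772 from the top.

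**Figure D2:**
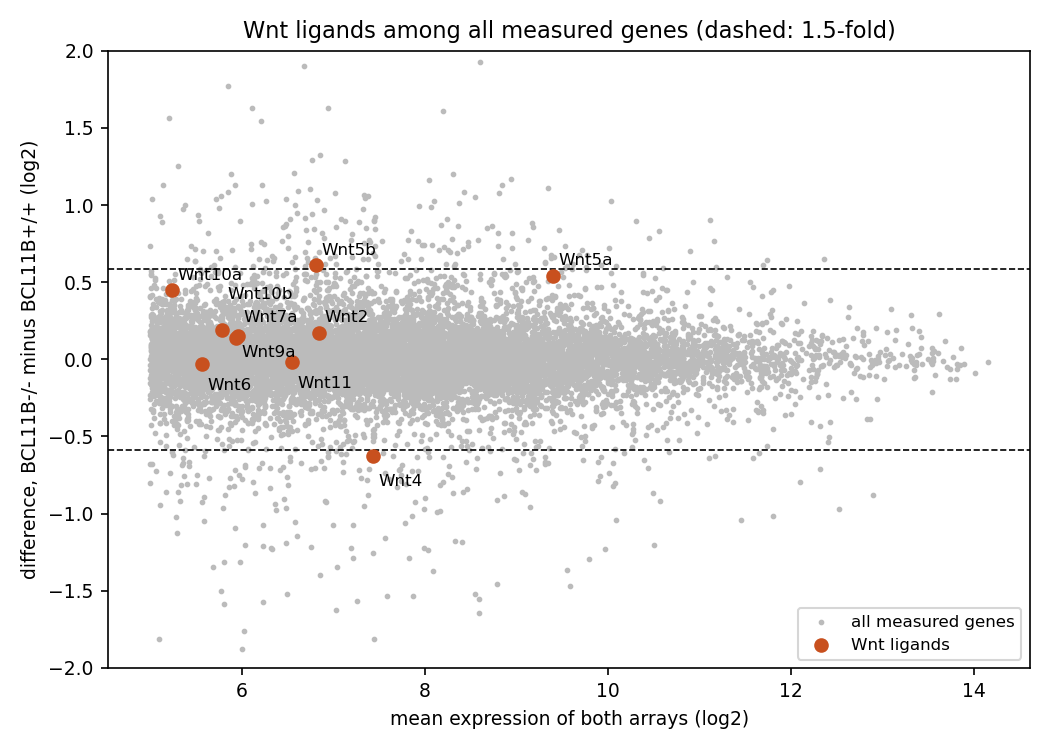
BCL11B-/- minus BCL11B+/+ expression (vertical axis, log2) against the mean of both arrays (horizontal axis, log2) for genes at or above the floor (grey) and the 10 Wnt ligands (orange), each by its brightest probe set, with 1 array for each genotype. Dashed lines mark 1.5-fold, 6 genes lie outside the drawn range, and Wnt5b (0.61) and Wnt4 (−0.63) are the only ligands beyond the lines, with Wnt5a (0.54) just inside.

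Some Wnt genes are direct neighbours in the RefSeq order of protein-coding genes, and the 10 ligands lie on 7 chromosomes. Wnt6 and Wnt10a are neighbours on chromosome 1 and differed by −0.03 and 0.45. Wnt9a lies beside Wnt3a on chromosome 11 with 0.14 and 0.06, and Wnt10b beside Wnt1 on chromosome 15 with 0.19 and −0.12, where Wnt1 was under the floor. Neighbours thus had no common size of difference. Of the 9 Wnt genes outside the 10, which were all on the array, 6 were under the floor and none differed by 1.5-fold. Their measured members ranged from −0.24 for Wnt16 to 0.06 for Wnt3a.

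The machinery that makes and releases Wnt ligands differed little between the genotypes. Porcn, which attaches the lipid, read 6.38 and 6.33, and Wls, which carries the ligand to the cell surface, read 11.12 and 11.25. Of 13 measured genes of this list none was past 1.5-fold, with a median of −0.03. The highest was Trabd2b, a protease that inactivates Wnt ligands, with 0.54, and the lowest Vps26a, of the retromer that recycles Wls, with −0.20. Notum, which removes the lipid, read 5.50 and 5.66.

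Of 16 receptors and co-receptors none was past 1.5-fold either, and their median was 0.03. Fzd9 was the highest with 0.55 and Lrp5 the lowest with −0.37. Ror2, a receptor for Wnt5a, read 7.84 and 7.88, and its relative Ror1 read 9.22 and 9.63, a difference of 0.40 on the brightest of 3 probe sets that went from −0.34 to 0.40. Of 9 measured secreted antagonists 2 were lower and none was higher. Sostdc1, which binds BMPs and Wnt co-receptors, read 6.64 and 5.32 on its brighter probe set, a difference of −1.31. Its other probe set differed by −0.56, short of 1.5-fold. Dkk2, which binds LRP5 and LRP6, read 8.62 and 7.88, a difference of −0.75.

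Among 11 measured genes that β-catenin signaling is known to induce, 2 were lower and none was higher, with a median of −0.18. Lgr5, an R-spondin receptor, differed by −2.49 on its brightest probe set and by −0.35 on the other, and Bambi, a pseudoreceptor of the TGF-β family, by −0.72. Axin2, a negative regulator that is induced by the pathway in most tissues, read 6.28 and 6.10. The study reported other downstream genes of the pathway, such as Wisp2 and Osteopontin, as higher in BCL11B-/- MEFs on these arrays. Those 2 genes are not among the 11, which therefore do not stand for all targets of the pathway. Of 11 measured genes of planar polarity and Dishevelled signaling Daam2, which links Dishevelled to the actin skeleton, was higher with 0.60 and 10 were neither. Its value as the mean of its probe sets was 0.50, short of 1.5-fold. Together with the other Wnt genes, these 6 lists had 1 of 63 measured genes higher and 4 lower, beside 1.61% and 1.75% of all genes. The count of higher genes was thus no more than the background share, whereas the count of lower genes was above it. Both counts are descriptions, since the lists were chosen with earlier results of these data known.

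**Figure D3:**
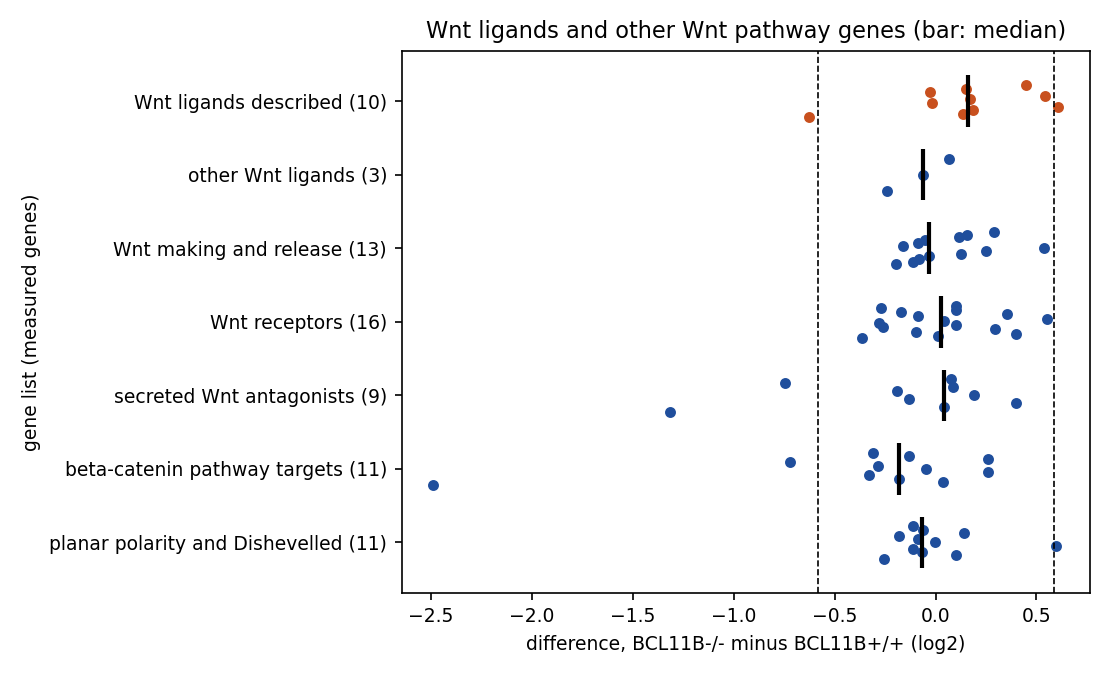
BCL11B-/- minus BCL11B+/+ expression (horizontal axis, log2) for the 10 Wnt ligands (orange) and 6 lists of other Wnt pathway genes (blue), where brackets give how many genes reached the floor and each genotype has 1 array. Black bars are list medians, from −0.18 for β-catenin pathway targets to 0.16 for the 10 ligands, and dashed lines mark 1.5-fold.

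Several ligands are made by epithelia in the embryo, and markers of other cell types are therefore set beside them. In this bulk RNA fewer cells of a type and less RNA per cell cannot be told apart. None of the 6 measured markers of surface epithelium was past 1.5-fold, with a summed linear level over all 9 of 896 in BCL11B+/+ and 899 in BCL11B-/- MEFs. Of its defining markers, Cdh1 read 3.90 and 3.99 and Trp63 4.51 and 4.40, both under the floor, whereas Epcam read 6.88 and 6.79. Wnt4 was lower, and so were 2 of 7 mesothelial markers, Lrrn4 (−0.62) and Gpm6a (−0.61). The summed level of the 7 was 4047 and 3200. The macrophage markers and the fibroblast markers Dcn and Thy1 named above were lower too. Over all genes counted the same way, 1.75% were 1.5-fold lower and 1.61% higher. With 1 array for each genotype, a shared direction does not show that genes vary together. Also lower were 2 of 3 measured genes of a skeletal muscle list. These were Actc1 with −0.81 and Tnnt2 with −0.77, while Des differed by 0.00. The summed level of all 7 genes of that list was 686 and 483, and the muscle-defining Myod1, Myog and Myf5 were under the floor. Wnt5b and Wnt5a were higher, and so were 4 of the 6 measured chondrocyte markers, led by Comp with 1.63 and Col2a1 with 1.29. The lowest of the 6, Matn4, went the other way with −0.20. On their brightest probe sets the 5 measured fat cell genes went both ways, with −0.97 for Lpl, −0.71 for Pparg and −0.53 for Cebpa but 0.56 for Adipoq and 0.31 for Fabp4. The first 2 of these were past 1.5-fold. Adipoq read 5.46 and 6.02, near the floor, and the 4 probe sets of Fabp4 went from −0.26 to 0.31. Whether any of these cell types, or the difference in Xist and Y-linked genes, has a part in the ligand differences was not tested.

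**Figure D4:**
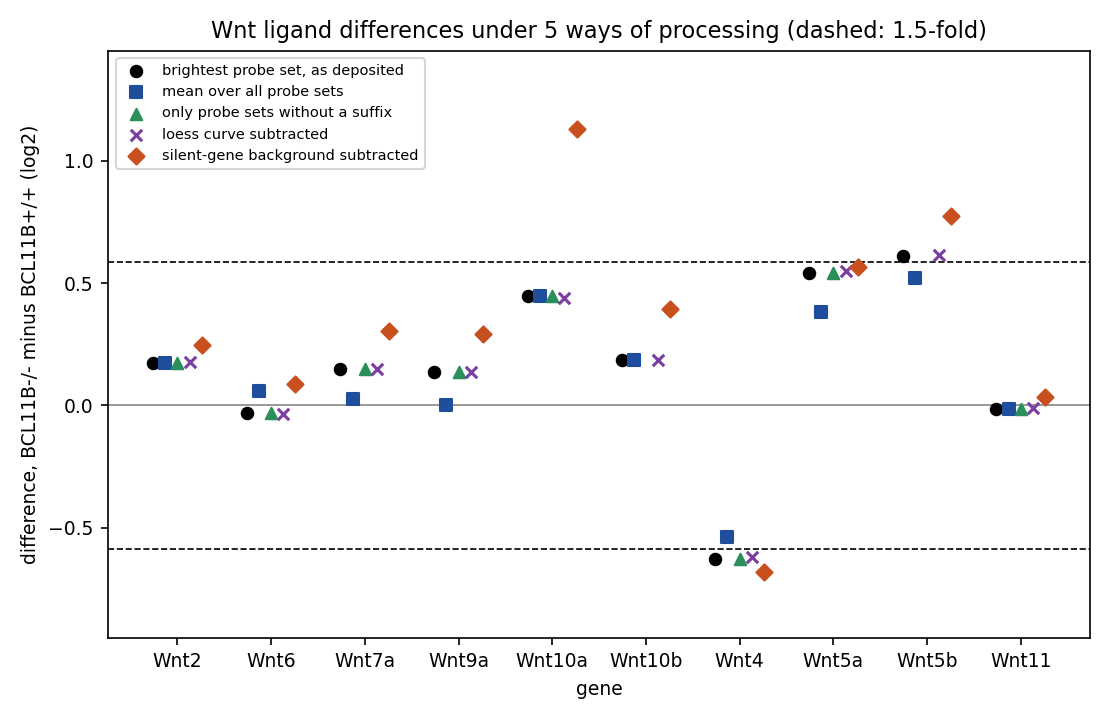
BCL11B-/- minus BCL11B+/+ expression (vertical axis, log2) of the 10 Wnt ligands (horizontal axis) under 5 ways of processing, with 1 array for each genotype and dashed lines at 1.5-fold. Wnt5b and Wnt10b have no value without suffixed probe sets, and Wnt10a moves most, from 0.45 to 1.13 when the level of genes not used by fibroblasts is subtracted.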

How the data were processed

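The authors hybridized amplified RNA, made from 100 ng of total RNA, to 1 array for each genotype and quantified the scans with RMA in R 3.0.3 and Bioconductor, as the study's methods and the submitters' processing notes state. The authors deposited log2 values, already background-corrected and normalized between the arrays, so a change of total mRNA would not be seen, and residual background pulls differences of dim genes toward 0. Of 45101 probe sets the platform annotation named 1 gene for 34958, several for 932 and none for 9211. All 19 ligand probe sets matched the RefSeq gene table by identifier and symbol.

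Each gene was represented by its brightest probe set (mean of both arrays), and genes with a mean under 5 log2 units were left out of counts. Only the ranks by weighted average difference used another choice, the probe set with the largest weighted difference in size, without a floor. No test was run. Ligands, lists, counts and the rule for naming genes (all 10 ligands, and of each list the genes past 1.5-fold or its extremes) were chosen with earlier results of these data known, and Oxt, Wnt1, Col1a1, Col3a1, Pdgfra, Epcam, Cebpa, Fabp4, Myod1, Myog, Myf5, Wnt7b, Porcn, Wls, Notum, Ror1, Ror2, Axin2, Cdh1, Trp63, Comp and Col2a1 were named after their values were seen. Alternatives were other choices of probe set, filters and size rules, a loess fit with a span of 0.4, the median subtracted and a background of silent genes subtracted. A weighted average difference, the ranking named in the study's methods, was computed on the same values. The counting rule was checked on simulated data. Protein features were planned and were not analysed here. The software was pandas 2.3.3, numpy 2.4.6 and statsmodels 0.14.6 under Python 3.11.15. The number of arrays limits the precision.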

Additional observations from a re-analysis of the deposited data

How the results depend on the processing

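No paired analysis was possible because each genotype has 1 array, and for the same reason no replicate could be left out. Of the alternative differences of single ligands 51 moved by less than the yardstick of 0.145 and 7 by more. Neither Wnt4 nor Wnt5b changed sign. Many of the 51 could move little or not at all, so their number is no measure of stability. The median subtracted was 0, the loess curve stayed between −0.01 and 0.01, and 4 ligands have only 1 probe set to choose from. Subtracting the median level of silent genes, 4.33 in BCL11B+/+ and 4.11 in BCL11B-/- MEFs, gave 1.13 for Wnt10a, 0.78 for Wnt5b, 0.40 for Wnt10b, 0.31 for Wnt7a and 0.29 for Wnt9a. Each of the 2 medians is the value of a single silent gene, a different one on each array, so their gap is not a measured change of background. The smaller amount subtracted from the BCL11B-/- array by itself moves dim genes upward. Wnt6 and Wnt11 went from −0.03 and −0.02 to 0.09 and 0.03. Wnt5a was 0.38 as the mean over all probe sets, and Wnt6 was 0.15 on the probe set with the largest weighted difference.

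Of the 10 ligands, 0 were higher and 0 lower as the mean over all probe sets, and 0 were higher without suffixed probe sets. Under a floor of 7, 0 were higher and the median was −0.043 over the 2 that passed, Wnt4 and Wnt5a. At 1.2-fold 3 were higher, and at 2-fold 0 were higher and 0 lower. Of the 63 pathway genes, 0 were higher under each of probe set averaging, no suffixes, a floor of 7 and 2-fold, while 8 were higher and 10 lower at 1.2-fold and 2 lower at 2-fold. The floor of 7 left 112 genes of the whole array higher and 124 lower, 1.2-fold gave 1086 and 962, and 2-fold gave 43 and 62. Stricter and looser thresholds count fewer and more by construction, and the cause of the other changes was not tested. The loess curve ran from −0.01 to 0.01 and the median subtracted was 0, so neither moved a count of ligands.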
